A study of Mus musculus with 12 samples.

Results

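Claudins are the membrane proteins that form the seal of the tight junction between epithelial cells, and 9 of them that are known from the nephron were followed here: Cldn1, Cldn2, Cldn3, Cldn4, Cldn7, Cldn8, Cldn10, Cldn16 and Cldn19. They were chosen by name and are 9 of the 38924 gene IDs counted in each library. All 9 were detected in every library and were tested. RNA of whole kidneys was sequenced from poly(A)-selected libraries of tubule-specific Arntl knockout mice and wild-type littermates on a C57BL/6J background. Arntl encodes BMAL1, a transcription factor of the circadian clock, and the knockout mice carried a floxed Arntl (Bmal1lox/lox), the doxycycline-responsive transactivator Pax8-rtTA, which is driven in renal tubule cells, and LC1, the Cre transgene that the transactivator switches on. Doxycycline was given in drinking water at 2 mg/ml for 2 weeks to animals 8 weeks old. All groups were kept in 12 h of light and 12 h of dark. Kidneys were taken at zeitgeber time 4 (ZT4), in the light phase, or at ZT16, in the dark phase. The 4 groups of 3 libraries were wild type (WT) at ZT4, knockout (KO) at ZT4, WT at ZT16 and KO at ZT16. The labels used here do not give the alleles of the wild-type littermates or the sex of the mice. The doxycycline dose is recorded alike for all 4 groups, but the labels do not state separately that the wild-type littermates drank it. It is not stated either that each library is a separate animal, and every p-value here measures library spread only, some of which may be technical.

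Each stretch of the nephron carries its own set of claudins, and that set decides which ions pass between the cells. Cldn2 forms a pore for small cations and water in the proximal tubule and the early thin descending limb. Cldn10 is made in an anion-selective form in the proximal tubule and a cation-selective form in the thick ascending limb, from separate promoters. Cldn16 and Cldn19 act together in the thick ascending limb, where calcium and magnesium are reabsorbed between the cells, and loss of either gene in people causes familial hypomagnesaemia with hypercalciuria and nephrocalcinosis. Cldn3, Cldn4, Cldn7 and Cldn8 belong to the distal nephron and the collecting duct, where Cldn4 and Cldn8 interact and govern the passage of chloride. Cldn1 is a barrier claudin that, in the kidney, is best known from the parietal cells lining Bowman's capsule. The counts are per gene, so the Cldn10 forms were not separated.

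The Cldn1 promoter is shown because Cldn1 was the claudin that differed between the genotypes at both times, and the first annotated Cldn10 promoter because it was the claudin promoter of those searched in which clock motifs were found. Each line holds the 250 bases before the annotated start, 5′ to 3′ on the strand of the gene, from RefSeq (GRCm38.p6). The Cldn1 stretch is chr16:26371840-26372089 on the minus strand and the Cldn10 stretch is chr14:118787621-118787870 on the plus strand.
Cldn1: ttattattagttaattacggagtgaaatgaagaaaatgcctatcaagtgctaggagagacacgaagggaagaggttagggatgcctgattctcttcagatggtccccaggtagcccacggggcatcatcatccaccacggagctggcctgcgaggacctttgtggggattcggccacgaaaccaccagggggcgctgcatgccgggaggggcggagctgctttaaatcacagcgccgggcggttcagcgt
Cldn10: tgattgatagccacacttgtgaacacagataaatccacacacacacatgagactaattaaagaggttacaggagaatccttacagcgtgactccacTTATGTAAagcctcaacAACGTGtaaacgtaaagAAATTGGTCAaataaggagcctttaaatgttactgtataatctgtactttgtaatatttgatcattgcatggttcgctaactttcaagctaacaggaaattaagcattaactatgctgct
Capitals mark matches to motifs bound by clock factors. Searched on both strands were the E-box CACGTG, which BMAL1 binds with its partner CLOCK, the related CACGTT, the D-box TTATGNAA of the DBP family and the RORE of the ROR and REV-ERB receptors, where N is any base. In 11 windows of 300 bases, 250 before and 50 after the start, which covered 8 of the 9 claudins, matches lay in 1 window, that of Cldn10. There TTATGTAA stood 154 bases before the start, AACGTG, which is CACGTT on the other strand, 137 bases before it and AAATTGGTCA 120 bases before it. The 3 matches did not overlap. Among all 32851 promoter windows of the same length, CACGTG was held by 7.15%, CACGTT by 4.68%, TTATGNAA by 3.38% and the RORE by 0.606%. In the Cldn1 window none of the 4 motifs was found, which says only that these letters are not in these 300 bases.

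Between 25628887 and 38043491 reads were assigned to genes in a library. KO ZT16 replicate 2 stood apart from the other libraries of its group: chi-square over its degrees of freedom was 191 and 169 against KO ZT16 replicates 4 and 6, and 4.71 between those replicates and 5.58 to 45.2 within the other groups. Mitochondrial genes took 22.3% of its counts and 14.1% and 14.0% in replicates 4 and 6, while the range was 16.3% to 18.0% in WT ZT4, 12.6% to 12.8% in KO ZT4 and 18.7% to 22.4% in WT ZT16. Results that rest on KO ZT16 replicate 2 are given with and without it. Levels are CPM, the reads of a gene scaled to a common library total, after TMM scaling between libraries. Arntl itself ranged from 13.8 to 20.01 CPM in WT ZT4, 14.4 to 16.2 in KO ZT4, 8.63 to 11.03 in WT ZT16 and 12.3 to 15.01 in KO ZT16, and whether these counts include the deleted exons is not given in the sources used here, so they check no label. Npas2, which is known to rise when BMAL1 is lost, ranged from 7.82 to 10.998 CPM in WT ZT4 and 45.0 to 45.3 in KO ZT4, and from 2.57 to 3.36 in WT ZT16 and 24.7 to 39.4 in KO ZT16. The segments of the nephron were all present by their markers, with summed levels in the 12 libraries of 9872 to 13029 CPM for 10 proximal tubule genes, 6425 to 10072 for 8 thick ascending limb genes other than claudins, 1349 to 1865 for 7 distal convoluted tubule genes and 570.1 to 797.3 for 10 principal cell genes. In whole-kidney RNA, fewer cells of a type and less RNA per cell cannot be told apart. RPKM divides the CPM by the kilobases of annotated exon so that genes can be compared.

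Cldn2 and Cldn10 had the highest levels per exon length of the 9 claudins. Over the 12 libraries Cldn2 had a mean of 201.1 RPKM with a range of 182.9 to 224.7, and Cldn10 had a mean of 116.1 with a range of 89.5 to 219.4. They made up 49.2% and 28.4% of the summed RPKM of the 9 genes. Cldn8 followed with a mean of 47.7 RPKM and a range of 34.5 to 76.8, or 11.7% of the sum. The other 6 were low: mean levels were 10.96 RPKM for Cldn16, 9.63 for Cldn4, 7.48 for Cldn19, 6.90 for Cldn1, 5.24 for Cldn7 and 3.86 for Cldn3. The ranges of each neighbouring pair from Cldn16 down overlapped, while Cldn8 lay apart from Cldn10 above it and from Cldn16 below it. Those of Cldn2 and Cldn10 overlapped by KO ZT16 replicate 2 alone: in the other 11 libraries Cldn2 ranged from 185.9 to 224.7 RPKM and Cldn10 from 89.5 to 144.6. The order of the 9 means was the same without that library. Of 26 other annotated claudins, 25 were counted and 8 were tested. Cldn12, known from the proximal tubule, had a mean of 23.8 RPKM, between Cldn8 and Cldn16, and Cldn15 had 6.54, between Cldn1 and Cldn7. The endothelial claudin Cldn5 had 3.37 RPKM, and Cldn6, Cldn11, Cldn18, Cldn23 and Cldn34c1 were at 0.675 or below. In 11 others no read was counted, and 6 had counts but were too low to test.

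**Figure D1:**
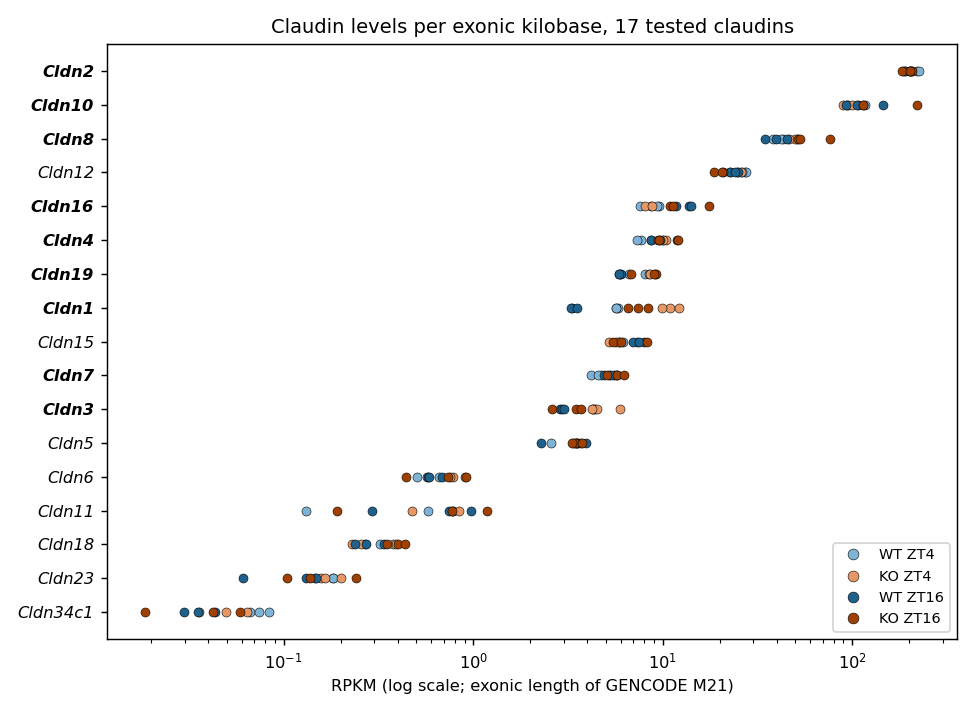
Level of each tested claudin in RPKM (log axis), with 1 point per library (12 per gene) and the genes ordered by their mean; the 9 nephron claudins are in bold. Cldn2 (182.9 to 224.7 RPKM) and Cldn10 (89.5 to 219.4) lie at the top and Cldn3, the lowest of the 9, at a mean of 3.86.

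The spread between libraries differed from claudin to claudin. Highest and lowest library differed 3.75-fold for Cldn1, 2.45-fold for Cldn10, 2.31-fold for Cldn16, 2.30-fold for Cldn3, 2.23-fold for Cldn8, 1.65-fold for Cldn4, 1.57-fold for Cldn19, 1.49-fold for Cldn7 and 1.23-fold for Cldn2. Without KO ZT16 replicate 2 the fold was 1.62 for Cldn10, 1.87 for Cldn16, 2.09 for Cldn3, 1.54 for Cldn8 and 1.21 for Cldn2, and it was 1.64 for Cldn4. Cldn2 had the smallest fold and Cldn1 the largest of the 9, with that library and without it.

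**Figure D2:**
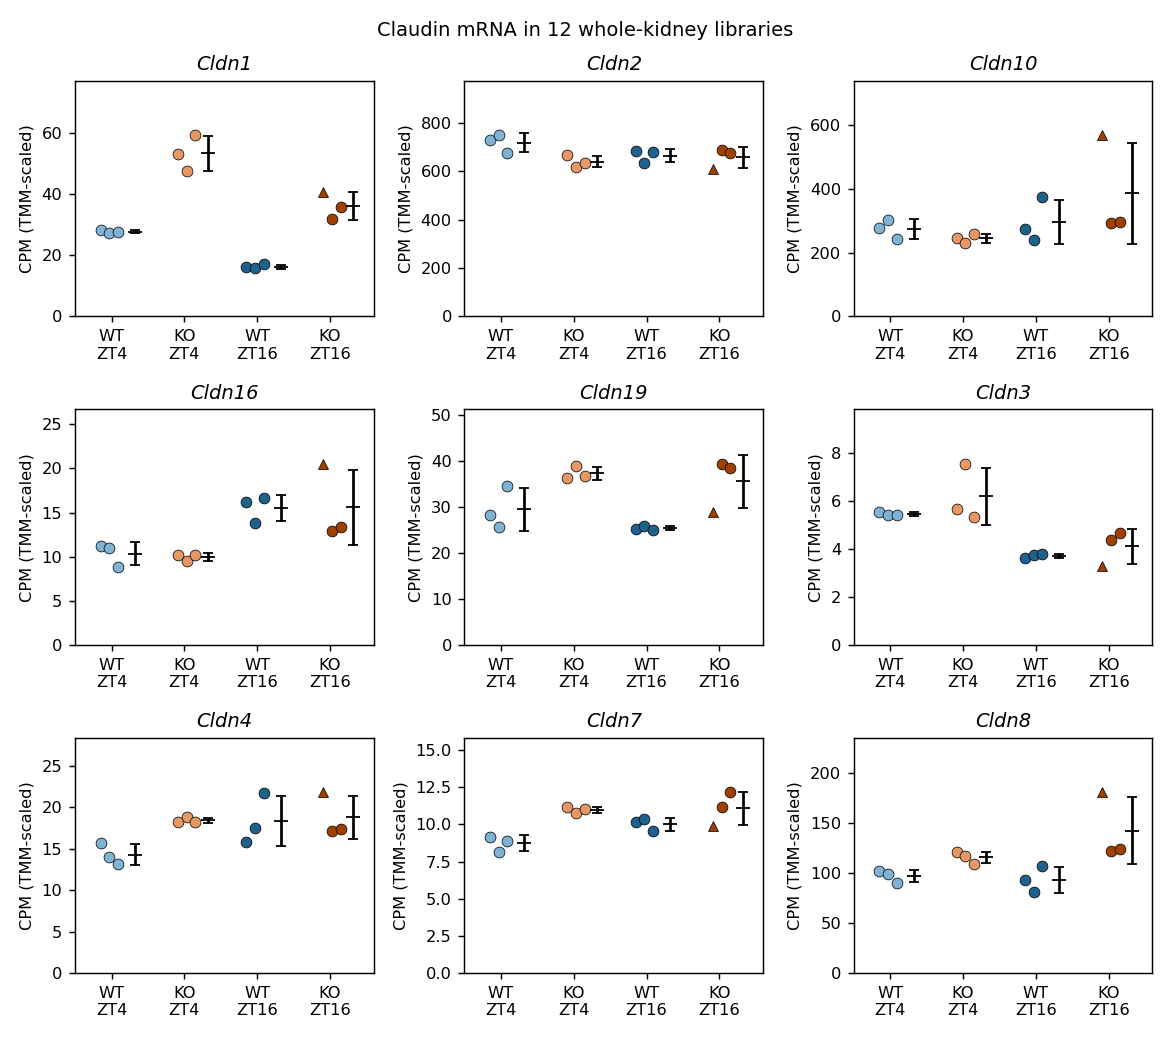
CPM of each of the 9 claudins in every library, 1 panel per gene with the 4 groups on the x axis, points for libraries, bars for the mean and SD of 3 libraries, and a triangle for KO ZT16 replicate 2. Cldn1 is higher in knockout at both times (53.4 against 27.7 and 36.1 against 16.3 CPM), and the triangle lies far above the rest of its group for Cldn10, Cldn8 and Cldn16.

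The first question was which claudins differed when tubule cells lost BMAL1. Cldn1 rose about as strongly at both times, and 3 more claudins, Cldn19, Cldn8 and Cldn7, were higher over both times. None was called lower by edgeR, DESeq2 or limma voom, and 0 had an unadjusted p under 0.05 for a lower level. At ZT4, 1 of the 9 claudins was called higher (edgeR quasi-likelihood test, Benjamini-Hochberg adjusted p under 0.05 over all tested genes), where 1.63% of all tested genes were called higher, 1.66% lower and 3.29% in either direction. At ZT16, 2 of 9 were called higher, Cldn1 and Cldn8, beside 2.07% of all genes higher, 1.96% lower and 4.03% in either direction. Over both times 4 of 9 were called higher, beside 6.04% of all genes higher, 5.31% lower and 11.4% in either direction. The median log2 fold change of the 9 was 0.25 at ZT4, 0.15 at ZT16 and 0.20 over both, and that of all genes was 0.00, 0.02 and 0.01. The libraries of the genotypes did not overlap for 5 claudins that were higher and 1 that was lower in knockout at ZT4, beside 19.3% and 18.4% of all genes, and for 3 that were higher and 0 that were lower at ZT16, beside 7.92% and 7.95%. Without KO ZT16 replicate 2 the numbers called higher at ZT4, at ZT16 and over both times were 4, 3 and 4, but the shares of all tested genes called higher were then 7.82%, 14.7% and 20.6%, and those called lower 7.48%, 16.5% and 21.7%. The comparison over both times is the mean of the other 2 and is no separate evidence.

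Cldn1, the barrier claudin, measured 28.3, 27.3 and 27.6 CPM in WT ZT4 and 53.2, 47.7 and 59.3 in KO ZT4. Its ZT16 levels were 16.1, 15.8 and 17.1 CPM in WT and 40.7, 31.8 and 35.7 in KO. Every knockout library was thus above every wild-type library of its time, and also above every wild-type library of the other time. Cldn1 was 1.92-fold higher in knockout at ZT4 (log2 fold change 0.94 ± 0.10 SE, edgeR adjusted p = 0.000286) and 2.21-fold higher at ZT16 (1.15 ± 0.11, adjusted p = 6.39e-05). Over both times it was 2.06-fold higher (1.04 ± 0.07, adjusted p = 2.6e-06). These calls held when each of the 12 libraries was left out in turn and in every other processing alternative tried, with the highest adjusted p at 0.00281 for ZT4, 0.00549 for ZT16 and 3.23e-05 over both. Cldn1 (ENSMUSG00000022512) lies on GRCm38 chromosome 16, 26356642 to 26371841, minus strand, and Cldn16 is its neighbour on the plus strand, 91.29 kb away with no annotated gene between them. The knockout effect on that neighbour was −0.06 ± 0.17 at ZT4 and 0.00 ± 0.17 at ZT16, neither of them called. Markers of podocytes, the other epithelial cells of the glomerulus, summed over 7 genes to 235.7 to 287.2 CPM in WT ZT4, 292.9 to 307.2 in KO ZT4, 185.3 to 227.4 in WT ZT16 and 186.8 to 252.7 in KO ZT16. At ZT4 these sums did not overlap between the genotypes. Over both times 1 of the 7 genes, Magi2, was called higher, beside 6.04% of all genes. That call was kept in 5 of 12 fits with a library left out, and Magi2 is also among the tight junction partners below. The part of the podocyte markers in the Cldn1 result was not tested.

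Cldn2 and Cldn10, which form pores, were not called different between the genotypes. Cldn2 (ENSMUSG00000047230, chromosome X, 139800828 to 139811386, plus strand) measured 729.7, 747.1 and 673.3 CPM in WT ZT4 and 665.0, 618.2 and 632.5 in KO ZT4. In the dark phase it measured 680.5, 631.7 and 676.7 CPM in WT and 608.3, 686.5 and 675.2 in KO. The knockout libraries lay below the wild type at ZT4 without overlap, and the genotypes overlapped at ZT16. The log2 fold change, whose sign at ZT4 turned with library size as the only scaling (0.02), was −0.17 ± 0.08 at ZT4 (95% interval −0.34 to 0.01, edgeR adjusted p = 0.296) and −0.01 ± 0.08 at ZT16 (−0.19 to 0.16, adjusted p = 0.957). Of 10 proximal tubule markers, 2 were called lower at ZT4 and over both times, beside 1.66% and 5.31% of all genes. The markers had medians of −0.18 and −0.16, and their summed level was 12039 to 13029 CPM in WT ZT4 and 11874 to 12003 in KO ZT4.

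Cldn10 (ENSMUSG00000022132, chromosome 14, 118787908 to 118875489, plus strand) measured 276.8, 304.0 and 243.8 CPM in WT ZT4 and 245.5, 231.9 and 258.8 in KO ZT4. In WT ZT16 it measured 274.7, 241.1 and 374.7 CPM, and in KO ZT16 568.5, 294.1 and 296.3. The 568.5 belongs to KO ZT16 replicate 2, and the 374.7 to WT ZT16 replicate 5, which were the libraries with the highest mitochondrial shares, 22.3% and 22.4%. The groups overlapped at both times. The log2 fold change was −0.16 ± 0.23 at ZT4 (95% interval −0.67 to 0.34, edgeR adjusted p = 0.714) and 0.38 ± 0.23 at ZT16 (−0.13 to 0.89, adjusted p = 0.467), and the ZT16 value became −0.02 (adjusted p = 0.935) without KO ZT16 replicate 2.

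Of the partner claudins of the thick ascending limb, Cldn19 rose in knockout over both times and Cldn16 did not pass the test. Cldn19 (ENSMUSG00000066058, chromosome 4, 119255414 to 119262438, plus strand) measured 28.2, 25.5 and 34.6 CPM in WT ZT4 and 36.2, 38.8 and 36.7 in KO ZT4. At ZT16 it measured 25.1, 25.8 and 25.04 CPM in WT and 28.9, 39.3 and 38.4 in KO. Every knockout library exceeded every wild-type library of its time. Over both times Cldn19 was 1.33-fold higher in knockout (log2 fold change 0.41 ± 0.09, edgeR adjusted p = 0.0123), and this call held when each library was left out and in the other alternatives (highest adjusted p 0.0392). At the single times it missed the threshold, at 0.34 ± 0.13 for ZT4 (adjusted p = 0.188) and 0.49 ± 0.13 for ZT16 (adjusted p = 0.0553). Without KO ZT16 replicate 2, in which Cldn19 was lowest of its group, both times passed, with 0.34 (adjusted p = 0.0272) and 0.61 (adjusted p = 0.00112). Without WT ZT4 replicate 5 the ZT16 value passed as well (adjusted p = 0.0376). Of the exonic bases of Cldn19, 2.11% overlap the antisense gene Gm12927.

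Cldn16 (ENSMUSG00000038148, chromosome 16, 26463135 to 26482765, plus strand) measured 11.2, 10.98 and 8.88 CPM in WT ZT4 and 10.2, 9.48 and 10.2 in KO ZT4. Its ZT16 levels were 16.2, 13.8 and 16.6 CPM in WT and 20.5, 12.9 and 13.3 in KO. The genotypes overlapped at both times. The knockout effect was −0.06 ± 0.17 at ZT4 (95% interval −0.42 to 0.31, edgeR adjusted p = 0.876) and 0.00 ± 0.17 at ZT16 (−0.36 to 0.36, adjusted p = 0.995), and −0.25 (adjusted p = 0.106) at ZT16 without KO ZT16 replicate 2. The difference between Cldn16 and Cldn19 in their response was not tested. Of 8 thick ascending limb markers other than claudins, 1 was called lower at ZT4 and over both times, beside 1.66% and 5.31% of all genes. This was Umod, which encodes uromodulin, with −0.55 (edgeR adjusted p = 0.0467, kept in 3 of 12 fits with a library left out) and −0.46 (adjusted p = 0.00861, kept in all 12). The 8 markers summed to 7185 to 8024 CPM in WT ZT4 and 6425 to 6657 in KO ZT4, and to 8201 to 10072 in WT ZT16 and 7715 to 9296 in KO ZT16. The median log2 fold change of the 8 was −0.00 at ZT4, where 4 of them had a positive value, 0.12 at ZT16 and 0.10 over both times, with 5 positive in each, and their part in the Cldn19 result was not tested.

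Of the claudins of the distal nephron and collecting duct, Cldn8 and Cldn7 were called higher in knockout over both times, and Cldn3 and Cldn4 did not pass. Cldn8 (ENSMUSG00000050520, chromosome 16, 88560828 to 88563183, minus strand) measured 102.1, 99.5 and 90.3 CPM in WT ZT4 and 121.1, 117.3 and 109.7 in KO ZT4. In the dark phase it measured 93.0, 81.2 and 107.3 CPM in WT and 181.0, 122.2 and 124.8 in KO. The knockout libraries were above the wild type at both times without overlap. Cldn8 was 1.35-fold higher over both times (log2 fold change 0.43 ± 0.10, edgeR adjusted p = 0.0194), and of the 12 libraries left out in turn KO ZT4 replicate 2 alone ended the call (adjusted p = 0.0511). At ZT16 it was 1.52-fold higher (0.61 ± 0.15, adjusted p = 0.0372), and at ZT4 the value was 0.25 ± 0.15 (adjusted p = 0.364). The ZT16 call depended on which libraries were in the fit: it remained in 4 of 12 fits with 1 library left out, those without WT ZT16 replicate 5 or a KO ZT16 library, and was lost in the others, for example at 0.50 (adjusted p = 0.158) without WT ZT16 replicate 3. Without KO ZT16 replicate 2 it was 0.39 (adjusted p = 0.0102).

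Cldn7 (ENSMUSG00000018569, chromosome 11, 69964779 to 69967885, plus strand) measured 9.17, 8.16 and 8.91 CPM in WT ZT4 and 11.1, 10.8 and 11.03 in KO ZT4. At ZT16 it measured 10.1, 10.4 and 9.54 CPM in WT and 9.88, 11.2 and 12.2 in KO. The groups were apart at ZT4 and overlapped at ZT16. Over both times Cldn7 was 1.18-fold higher (0.24 ± 0.07, edgeR adjusted p = 0.049), a call at the edge of the threshold that was kept in 1 of 12 fits with a library left out, the one without KO ZT16 replicate 2 (0.27, adjusted p = 0.00499). The values for ZT4 and ZT16 were 0.33 ± 0.10 (adjusted p = 0.104) and 0.14 ± 0.10 (adjusted p = 0.52), and the ZT4 value passed without KO ZT16 replicate 2 (adjusted p = 0.0242).

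Cldn4 (ENSMUSG00000047501, chromosome 5, 134945119 to 134946934, minus strand) measured 15.7, 14.0 and 13.2 CPM in WT ZT4 and 18.3, 18.8 and 18.3 in KO ZT4. Its ZT16 levels were 15.8, 17.6 and 21.7 CPM in WT and 21.8, 17.1 and 17.4 in KO. The ZT4 groups did not overlap and the ZT16 groups did. The log2 fold change was 0.37 ± 0.13 at ZT4 (edgeR adjusted p = 0.164) and 0.03 ± 0.13 at ZT16 (95% interval −0.25 to 0.32, adjusted p = 0.93), and the ZT4 value passed without KO ZT16 replicate 2 (adjusted p = 0.0324). Cldn3 (ENSMUSG00000070473, chromosome 5, 134986214 to 134987472, plus strand) is the neighbour of Cldn4, 39.28 kb away with no annotated gene between. It measured 5.53, 5.41 and 5.39 CPM in WT ZT4 and 5.68, 7.54 and 5.34 in KO ZT4, and 3.61, 3.73 and 3.78 in WT ZT16 and 3.28, 4.39 and 4.67 in KO ZT16. The genotypes overlapped at both times, and the knockout effect on Cldn3 was 0.19 ± 0.15 at ZT4 (−0.14 to 0.52, adjusted p = 0.511) and 0.15 ± 0.16 at ZT16 (−0.20 to 0.50, adjusted p = 0.703). Of the exonic bases of Cldn3, 3.18% overlap the antisense gene Wbscr25.

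**Figure D3:**
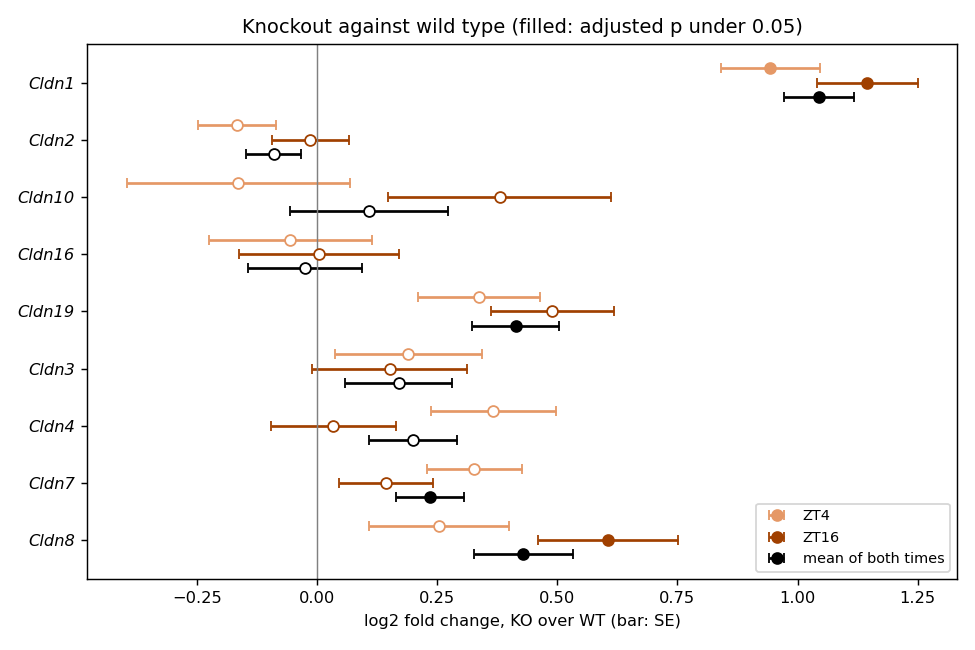
Log2 fold change of knockout against wild type for the 9 claudins at ZT4, at ZT16 and over both times, with bars of 1 SE from the fit of all 12 libraries; filled points passed the adjusted p threshold of 0.05. Cldn1 stands at 0.94, 1.15 and 1.04, and Cldn19, Cldn8 and Cldn7 are filled over both times at 0.41, 0.43 and 0.24.

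The 10 principal cell markers summed to 570.1 to 620.4 CPM in WT ZT4 and 738.5 to 765.9 in KO ZT4, and to 629.2 to 680.6 in WT ZT16 and 721.8 to 797.3 in KO ZT16. Over both times 3 of the 10 were called higher and 1 lower, beside 6.04% and 5.31% of all genes, shares that hold for each list below. The median was 0.12, with 6 of the 10 positive. The highest was Npnt, which encodes nephronectin, at 1.01 (edgeR adjusted p = 8.39e-05). Also higher were Scnn1b, a subunit of the epithelial sodium channel, at 0.26 (adjusted p = 0.019) and Avpr2, the vasopressin receptor, at 0.29 (adjusted p = 0.0316), of whose exonic bases 81.3% overlap Arhgap4. The lower one was the water channel gene Aqp4 at −0.83 (adjusted p = 0.0239). Of 12 fits with a library left out, Npnt was kept in 12, Scnn1b and Aqp4 in 8 each and Avpr2 in 5. The 7 distal convoluted tubule markers summed to 1349 to 1584 CPM in WT ZT4 and 1650 to 1796 in KO ZT4, and to 1416 to 1665 in WT ZT16 and 1624 to 1865 in KO ZT16. All 7 had a positive knockout effect over both times, with a median of 0.26, and 1 was called, Trpm6, which is also among the regulators below. The 9 intercalated cell markers summed to 307.9 to 346.2 CPM in WT ZT4 and 363.6 to 375.0 in KO ZT4, and to 306.9 to 340.1 in WT ZT16 and 350.9 to 372.6 in KO ZT16. Over both times 2 were called higher, Slc4a9 at 0.50 and Hmx2 at 0.45, and 6 of the 9 were positive. Slc4a9 was kept in all 12 fits with a library left out and Hmx2 in 4. The 10 urothelium markers, of cells that also make claudins, summed to 99.0 to 107.8 CPM in WT ZT4, 108.9 to 119.2 in KO ZT4, 121.9 to 133.4 in WT ZT16 and 140.3 to 163.3 in KO ZT16, with Krt7 called higher over both times at 0.21. The Krt7 call was kept in 4 of 12 such fits. Principal cell, intercalated cell and urothelium sums were higher in knockout at both times without overlap. Thin limb, endothelial and macrophage sums were lower at both times without overlap. A sum follows its most abundant genes, and the median log2 fold changes did not all share its direction. At ZT4 and ZT16 they were 0.16 and 0.13 for principal cell, 0.14 and 0.18 for intercalated cell and −0.07 and 0.25 for urothelium markers. For thin limb markers they were 0.05 and 0.24, for the 7 endothelial ones −0.04 and 0.00 and for macrophage ones −0.32 and −0.20. Of 6 thin limb markers, Bst1 was called higher at 0.34 and Aqp1 lower at −0.31 over both times. Of 8 macrophage and leukocyte markers Csf1r was called lower at −0.33. Of 7 endothelial markers other than claudins 0 were called over both times by edgeR or limma voom. DESeq2 called 2 of these 7 lower, where it called 1243 of all 16150 genes lower. An unadjusted p under 0.05 was found for 3 of them, and the share of all genes was not counted for that. Fat markers summed to 15.9 to 120.1 CPM and adrenal cortex markers to 0.451 to 0.898 CPM in the 12 libraries. The part of these cell types in the claudin results was not tested.

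Among the proteins that share the junction with claudins, Ildr1, Cgn and Tjp3 rose in knockout at both times. Of 25 tight junction partners, 3 were called higher at ZT4 and at ZT16, beside 1.63% and 2.07% of all genes. Over both times 6 were called higher and 1 lower, beside 6.04% and 5.31%, and the medians were 0.13, 0.14 and 0.13. Beside the shares of all genes already given for the fit without KO ZT16 replicate 2 (7.82%, 14.7% and 20.6% higher), these counts were 7, 11 and 14 higher and 0, 1 and 1 lower in it. Ildr1, an angulin that marks the corners where 3 cells meet, had mean levels of 22.5 ± 2.77 (SD, n = 3) CPM in WT ZT4 and 33.9 ± 0.566 in KO ZT4, and of 23.0 ± 0.805 in WT ZT16 and 42.3 ± 3.87 in KO ZT16. Its log2 fold change was 0.59 ± 0.10 at ZT4 (edgeR adjusted p = 0.00598) and 0.88 ± 0.10 at ZT16 (adjusted p = 0.000262). Cgn encodes cingulin, a protein on the cytoplasmic face of the junction, and had 18.1 ± 0.763 CPM in WT ZT4, 27.0 ± 1.197 in KO ZT4, 14.0 ± 0.520 in WT ZT16 and 24.9 ± 3.71 in KO ZT16. It rose by 0.58 ± 0.10 at ZT4 (adjusted p = 0.0096) and rose by 0.83 ± 0.11 at ZT16 (adjusted p = 0.000641), and the ZT4 call was lost without WT ZT4 replicate 3 (adjusted p = 0.0581) or KO ZT4 replicate 2 (adjusted p = 0.0519). Tjp3, the scaffold ZO-3, had 8.70 ± 0.612 CPM in WT ZT4, 13.2 ± 1.08 in KO ZT4, 6.82 ± 0.859 in WT ZT16 and 11.8 ± 2.38 in KO ZT16.

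Tjp3 rose by 0.69 ± 0.11 over both times (edgeR adjusted p = 0.00128, kept in all 12 fits with a library left out), by 0.60 ± 0.15 at ZT4 (adjusted p = 0.0497) and, in the dark, by 0.79 ± 0.15 at ZT16 (adjusted p = 0.0108). The Tjp3 call at ZT4 was kept in 3 of 12 fits with a library left out, those without WT ZT16 replicate 5 or KO ZT16 replicate 2 or 6, and that at ZT16 in 9 of 12, being lost without WT ZT16 replicate 5 or KO ZT16 replicate 4 or 6. Also called over both times was the polarity gene Mpp5 at −0.27 (adjusted p = 0.0498), kept in 2 of 12 such fits. Occludin, the classic partner of claudins, showed values near 0, and Ocln was at −0.03 for ZT4 (adjusted p = 0.857) and 0.05 for ZT16 (adjusted p = 0.816). Tjp1, the scaffold ZO-1 that claudins bind, was at 0.15 (adjusted p = 0.365) and 0.08 (adjusted p = 0.694).

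**Figure D4:**
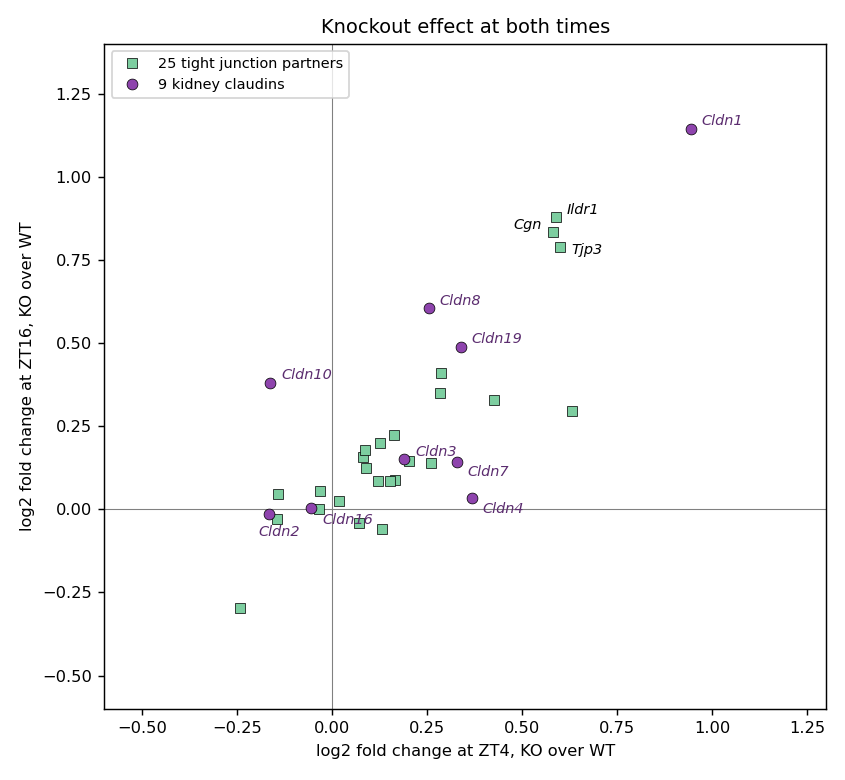
Knockout effect (log2 fold change) at ZT4 on the x axis and at ZT16 on the y axis for the 9 claudins and 25 tight junction partners, 1 point per gene. Cldn1 (0.94 and 1.15) is farthest out, and Ildr1 (0.59 and 0.88), Cgn (0.58 and 0.83) and Tjp3 (0.60 and 0.79) lie on the same side; each axis uses its own 6 libraries and all come from 1 fit.

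Among 22 regulators of claudins and partners of paracellular transport, 1 was called lower at each time, beside 1.66% and 1.96% of all genes. Over both times 3 were called higher and 1 lower, beside 6.04% and 5.31%. The counts without KO ZT16 replicate 2 were 5, 10 and 10 higher and 2, 1 and 2 lower, beside 7.82%, 14.7% and 20.6% of all genes higher and 7.48%, 16.5% and 21.7% lower. The lower one was Prss8, a serine protease that in cell culture has been linked to claudin-based permeability and that activates the epithelial sodium channel. Prss8 had 370.3 ± 35.1 (SD, n = 3) CPM in WT ZT4 and 246.3 ± 12.2 in KO ZT4, and 411.1 ± 16.3 in WT ZT16 and 295.1 ± 20.2 in KO ZT16. Its log2 fold change was −0.59 ± 0.09 at ZT4 (edgeR adjusted p = 0.00298) and −0.48 ± 0.09 at ZT16 (adjusted p = 0.00876). The ZT16 call was lost with library size as the only scaling (−0.34, adjusted p = 0.0745) and with only the libraries compared in the fit (−0.47, adjusted p = 0.0965). Of the exonic bases of Prss8, 6.59% overlap Kat8. Higher over both times were Trpm6, the magnesium channel of the distal convoluted tubule, at 0.46 (adjusted p = 0.0197), Grhl2, a transcription factor of epithelial junction genes, at 0.34 (adjusted p = 0.0232), and Trpv5, a calcium channel of the same segment, at 0.36 (adjusted p = 0.0363). These 3 calls were kept in 7, 5 and 2 of 12 fits with a library left out, and for each of them WT ZT4 replicate 3, KO ZT4 replicate 6, WT ZT16 replicate 5 and KO ZT16 replicate 4 were among those that ended the call.

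The next question was which claudins differed between the light and the dark phase in each genotype. Cldn1 was lower at ZT16 than at ZT4 in both genotypes, Cldn3 showed the same direction and Cldn16 the opposite one. In wild type 1 of 9 claudins was called lower and 0 higher, beside 3.63% of all genes lower, 2.87% higher and 6.5% in either direction. An unadjusted p under 0.05 was found for 4 of the 9 and for 29.3% of all genes. DESeq2 called 1 of the 9 higher and 2 lower, where of all 16150 genes it called 931 higher and 1156 lower. In knockout 2 were called lower and 1 higher, beside 5.2% and 5.27% of all genes, or 10.5% in either direction. The median of the 9 was −0.05 in wild type and 0.02 in knockout, with −0.01 for all genes in both. In each genotype the libraries of the 2 times did not overlap for 3 claudins that were higher at ZT16 and 2 that were lower. The share of all genes without overlap was not counted between times, so these counts have no background to be set against. Between genotypes it was 19.3% higher and 18.4% lower at ZT4, and 7.92% and 7.95% at ZT16. Non-overlap of 3 and 3 libraries alone thus says little.

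Cldn1 fell by 0.77 ± 0.10 on the log2 scale in wild type (edgeR adjusted p = 0.00249), from 27.7 ± 0.496 to 16.3 ± 0.661 CPM (SD, n = 3), and by 0.56 ± 0.10 in knockout (adjusted p = 0.0116), from 53.4 ± 5.76 to 36.1 ± 4.45 CPM. No ZT16 library reached a ZT4 library of its genotype. The podocyte sums given above were lower at ZT16 in both genotypes without overlap, and their part in the fall of Cldn1 was not tested. The wild-type call held without each library in turn, while that in knockout was lost without KO ZT4 replicate 6 (−0.48, adjusted p = 0.0541). Cldn3 was at 5.44 ± 0.0723 CPM in WT ZT4 and 3.71 ± 0.0879 in WT ZT16, again without overlap, at −0.55 ± 0.16 (adjusted p = 0.0578). In knockout Cldn3 fell by 0.59 ± 0.16 (adjusted p = 0.0372), a call lost without any KO ZT4 library (−0.42, adjusted p = 0.15 without replicate 4), WT ZT4 replicate 1 or 3, WT ZT16 replicate 1 or KO ZT16 replicate 2. Without KO ZT16 replicate 2 the Cldn3 value passed in wild type (adjusted p = 0.00827) and missed in knockout (−0.47, adjusted p = 0.0678).

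Cldn16 went the other way. It was at 10.4 ± 1.28 CPM in WT ZT4 and 15.5 ± 1.4998 in WT ZT16, and at 9.97 ± 0.419 in KO ZT4 and 15.6 ± 4.29 in KO ZT16, and the times did not overlap in either genotype. The log2 fold change was 0.58 ± 0.17 in wild type (edgeR adjusted p = 0.058) and 0.64 ± 0.17 in knockout (adjusted p = 0.0358). The knockout call was lost without any KO ZT4 library, WT ZT4 replicate 1 or 3, WT ZT16 replicate 1 or KO ZT16 replicate 2, and without KO ZT16 replicate 2 the values were 0.59 (adjusted p = 0.00132) in wild type and 0.39 (adjusted p = 0.0526) in knockout. Most of the thick ascending limb markers other than claudins shared this direction. Of 8, 3 were called higher at ZT16 in wild type and 5 in knockout, beside 2.87% and 5.27% of all genes. The medians were 0.36 and 0.45, with 7 and 6 of the 8 positive and a lowest value of −0.38 in wild type and −0.03 in knockout. Without KO ZT16 replicate 2, 5 and 4 were called, beside 17.5% and 3.85% of all genes higher, and with library size as the only scaling 1 and 2, beside 0.947% and 1.11%. Among them were Enox1 at 1.55 (adjusted p = 0.0026) in wild type and 2.03 (adjusted p = 0.00124) in knockout, and Tmem207 at 0.64 (adjusted p = 0.00988) and 0.62 (adjusted p = 0.0123). The part of these markers in the Cldn16 value was not tested.

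The remaining claudins were not called between the times. Cldn19 was at −0.22 ± 0.13 in wild type (95% interval −0.50 to 0.06, edgeR adjusted p = 0.258) and −0.07 ± 0.13 in knockout (−0.34 to 0.21, adjusted p = 0.721). Cldn10 was at 0.11 ± 0.23 in wild type (adjusted p = 0.765) and 0.65 ± 0.23 in knockout (adjusted p = 0.0759). The Cldn10 value in knockout was 0.26 (adjusted p = 0.25) without KO ZT16 replicate 2, and passed without KO ZT16 replicate 4 (0.82, adjusted p = 0.0402) or 6 (0.81, adjusted p = 0.0349). Cldn4 was at 0.36 ± 0.13 in wild type (adjusted p = 0.107), and passed there without KO ZT16 replicate 2 (adjusted p = 0.0183). Cldn2 was at −0.11 ± 0.08 (−0.29 to 0.06) in wild type and 0.04 ± 0.08 (−0.13 to 0.22) in knockout, the narrowest intervals of the 9.

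**Figure D5:**
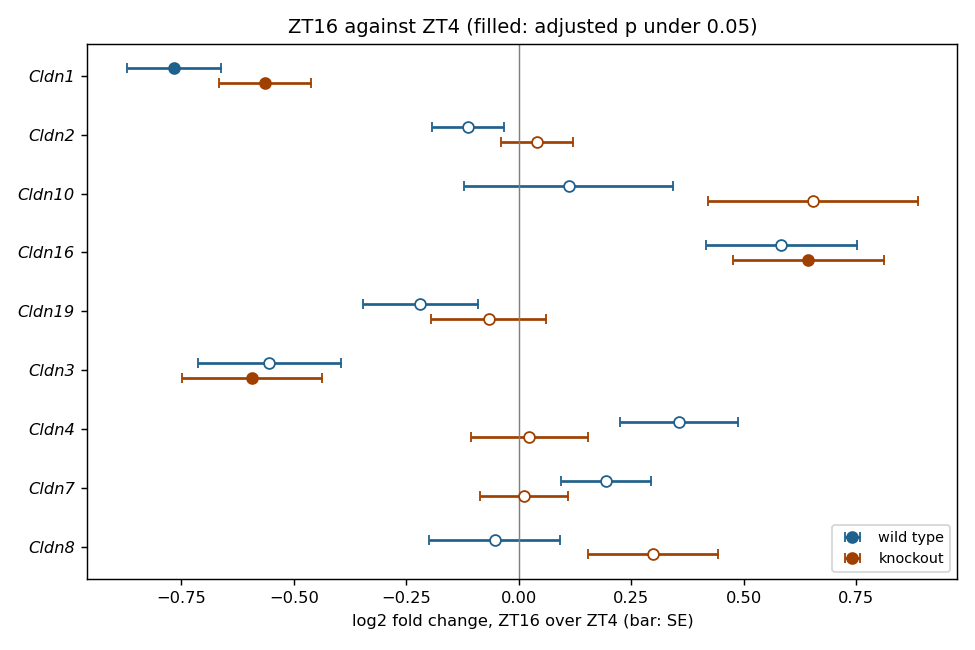
Log2 fold change of ZT16 against ZT4 for the 9 claudins in wild type and in knockout, with bars of 1 SE; filled points passed the adjusted p threshold. Cldn1 (−0.77 and −0.56) and Cldn3 (−0.55 and −0.59) lie below 0 and Cldn16 (0.58 and 0.64) above it in both genotypes.

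Whether the knockout effect itself differed between the times was tested with the interaction. None of the 9 claudins was called by edgeR, DESeq2 or limma voom, and 0 had an unadjusted p under 0.05, beside 3.34% of all genes. Of all genes 0.0186% were called, 0.00619% higher and 0.0124% lower. For Cldn1 the difference of ZT16 minus ZT4 was 0.20 ± 0.15 (95% interval −0.12 to 0.52), for Cldn8 0.35 ± 0.21 (−0.10 to 0.80) and for Cldn4 −0.33 ± 0.18 (−0.73 to 0.07). The interval for Cldn8 includes differences as large as its knockout effect at ZT16, 0.61. The comparisons between genotypes and between times share their libraries, so the values of a gene in them are not independent.

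Across the 12 libraries, the claudins did not follow 1 common pattern. As a description of log2 CPM, Pearson's r was −0.90 between Cldn3 and Cldn16 (−0.88 without KO ZT16 replicate 2), 0.76 between Cldn1 and Cldn19 (0.82 without it), and 0.71 between Cldn8 and Cldn10, which fell to 0.20 without it. These 12 points share 4 groups and their composition, and no test was made. Among 10412 or 10413 genes that averaged 5 CPM or more, those most like Cldn1 were Slc35f2 (r = 0.97), Coq8a (0.97) and Aqp8 (0.96). Those most like Cldn19 were Arrb1 (0.97), Sema3b (0.97) and Dlgap4 (0.96), and those most like Cldn8 were Acsl5 (0.96), Folh1 (0.95) and Tfpi2 (0.95). Cldn10 was closest to Bik (0.98), Lamp2 (0.97) and Mospd2 (0.97), and Cldn16 to Dync1i2 (0.99), Aktip (0.98) and Lamtor5 (0.98). Cldn3 was close to Tcf4 (0.97) and Dcp1b (0.96), and Cldn7 closest to Ripor3 (0.96), the clock repressor Cry2 (0.93) and Efhd1 (0.90). For Cldn4 the closest were Eif5a2 (0.88), Epcam (0.87), an epithelial adhesion protein known to bind claudins, and Aph1b (0.86), and for Cldn2 they were Riox2 (0.88), Ftl1 (0.88) and Iars2 (0.85). Over the 11 libraries without KO ZT16 replicate 2, the r of the same genes with Cldn10 was 0.95 for Bik, 0.89 for Lamp2 and 0.90 for Mospd2. With Cldn8 it was then 0.90 for Acsl5, 0.90 for Folh1 and 0.86 for Tfpi2, and with Cldn2 it was 0.85 for Riox2, 0.84 for Ftl1 and 0.80 for Iars2. With Cldn4 it was 0.85 for Eif5a2, 0.88 for Epcam and 0.81 for Aph1b, and for the genes named beside the other 5 claudins r moved by less than 0.02.

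Of the 8 other claudins tested, 1 was called lower over both times and 1 in the dark phase in knockout, Cldn12 each time. Of all genes 5.31% and 5.2% were called lower in these comparisons. Cldn12 measured 114.3, 116.1 and 110.9 CPM in WT ZT4, 109.8, 96.3 and 103.9 in KO ZT4, 96.3, 105.0 and 101.6 in WT ZT16 and 79.0, 87.6 and 86.5 in KO ZT16. Knockout libraries were lower than wild type at both times without overlap, beside 18.4% of all genes at ZT4 and 7.95% at ZT16. The knockout effect was −0.20 ± 0.05 over both times (edgeR adjusted p = 0.0343), kept in 4 of 12 fits with a library left out, and ZT16 against ZT4 in knockout was −0.29 ± 0.08 (adjusted p = 0.0368), kept in 8 of 12. With library size as the only scaling the first became −0.03 (adjusted p = 0.819).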

How the data were processed

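The deposited files hold raw read counts per gene. Per the labels' protocols, 500 ng of total kidney RNA was the input of TruSeq stranded mRNA library preparation. The authors, per the submitters' processing notes, used cutadapt 1.2.1, TopHat2 2.0.9, GRCm38, HTSeq 0.5.4p3, and edgeR and limma in R 3.1.1. How HTSeq treated strand and overlaps, and which gene models it used, is not given in the sources used here, so reads of overlapping antisense genes cannot be told apart. GENCODE M21 named 37607 of the 38924 IDs and gave positions and exon lengths.

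Rows of unassigned reads were excluded from library totals and from every test. They held 3.50% to 5.96% of a library's reads without a feature, 0.411% to 0.534% ambiguous reads and 30.8% to 43.0% reads with more than 1 alignment. filterByExpr over the 4 groups left 16150 genes, which had TMM factors and then edgeR's quasi-likelihood test (version 4.0.16, R 4.3.3) from a single model of the 12 libraries with 8 residual degrees of freedom, with Benjamini-Hochberg adjustment over all tested genes and calls at adjusted p under 0.05. SE is that of the fitted log2 fold change and SD is over the 3 libraries of a group. Log2 CPM for correlations used a prior count of 2.

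The 9 claudins, the gene lists and the marker lists were chosen with earlier results of these data known. Some lists share genes, so their counts are not all separate observations. Trpm6, Wnk1 and Klhl3 are both regulators and distal convoluted tubule markers. Egf, Kcnj1 and Casr are both regulators and thick ascending limb markers, and Magi2 is both a tight junction partner and a podocyte marker. Partner and regulator genes were named, up to 4 per list and comparison by adjusted p, where called, and Ocln and Tjp1, chosen after their values were seen, as well-known partners. Marker genes were named where called, and for each claudin the 3 genes of highest Pearson r. Some genes that these rules allow are not reported here. Alternatives were DESeq2 1.42.0, limma 3.58.1 with voom, scaling by RLE or by the upper quartile, testing without a filter or only genes averaging 5 CPM or more, fitting only the libraries compared, leaving out each library, and blocking on the replicate number between times. Library size as the only scaling was added after seeing the data. Protein sequences and the Cldn8 promoter were not used here.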

Additional observations from a re-analysis of the deposited data

How the results depend on the processing

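Cldn1 kept its knockout calls and its wild-type fall at ZT16 in every alternative run. With each library left out in turn, genes called ranged from 228 to 2503 at ZT4 (1 to 4 of the 9 claudins), 380 to 5099 at ZT16 (1 to 3), 1120 to 6935 over both times (2 to 4), 220 to 5473 between times in wild type (1 to 4), 181 to 3629 in knockout (0 to 4) and 3 to 8 for the interaction (0 to 0). Main counts were 531 (263 higher, 268 lower), 651 (335, 316), 1834 (976, 858), 1050 (463, 587), 1691 (851, 840) and 3. DESeq2 called 1032, 1009, 2087, 3584 and 17 at ZT4, at ZT16, between times in wild type, in knockout and for the interaction, with 3 claudins in wild type. In knockout its split was 2225 higher and 1359 lower. Only the libraries compared gave 2877 (5 claudins), 200 (1), 3557 (3) and 36 (0) in the first 2 and the 2 time comparisons, where the Cldn1 fall in knockout was −0.56 (adjusted p = 0.0908). Upper-quartile scaling called 2 claudins between times in wild type, with 398 genes higher and 796 lower. The cause of these differences was not tested.

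Library size as the only scaling moved the median of all genes to 0.18, 0.16 and 0.17 for knockout and to −0.19 and −0.23 for time. It called 288 genes higher and 107 lower at ZT4 (3 claudins), 331 and 143 at ZT16, 1660 and 342 over both, 153 and 546 (699 in all) between times in wild type, 179 and 875 (1054) in knockout and 0 for the interaction. Uncalled values whose sign turned were Cldn2, at 0.016, 0.14 and 0.079 for knockout, and Cldn16, at 0.13 at ZT4 and 0.12 over both, and Cldn10, at 0.021 at ZT4. For time they were Cldn10 at −0.084 in wild type, Cldn2 at −0.17, Cldn4 at −0.21 and Cldn7 at −0.20 in knockout, and Cldn16 at −0.012 for the interaction. Near 0 the sign also turned for Cldn4 (−0.0069) and Cldn7 (−0.018) in knockout over time with upper-quartile scaling, for Cldn7 (−0.0097) with a mean of at least 5 CPM, which left Cldn3 out, and for Cldn16 at ZT16 (−0.026) with limma voom.

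With 1 library left out, uncalled values that turned ranged for knockout at ZT16 from −0.25 to 0.12 for Cldn16, −0.019 to 0.57 for Cldn10, −0.10 to 0.16 for Cldn4 and −0.058 to 0.027 for Cldn2, at ZT4 from −0.15 to 0.0098 for Cldn16, and over both from −0.090 to 0.21 for Cldn10 and −0.15 to 0.035 for Cldn16. For time they ranged from −0.084 to 0.25 for Cldn10 and −0.15 to 0.048 for Cldn8 in wild type, from −0.15 to 0.055 for Cldn19, −0.10 to 0.087 for Cldn4 and −0.060 to 0.078 for Cldn7 in knockout, and for the interaction from −0.20 to 0.18 for Cldn16 and −0.13 to 0.13 for Cldn3.

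No paired analysis was possible between genotypes because their libraries share no replicate number. Between times, same-numbered libraries correlated at 0.05, −0.07 and −0.27 in wild type and −0.01, −0.05 and −0.0029 in knockout. Libraries with different numbers ranged from −0.19 to 0.22 in wild type and from −0.08 to 0.09 in knockout. These values cannot settle whether same-numbered libraries share more than a number. With the number as a block, 229 genes were called in wild type, 189 in knockout and 1 for the interaction, with 1, 1 and 0 claudins. The Cldn16 and Cldn3 values in knockout were then 0.61 (adjusted p = 0.0767) and −0.59 (adjusted p = 0.0743). Counts of 3 libraries a group limit what can be detected, most of all for the interaction.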
